A study of Mus musculus with 11 samples.

Results

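The comparison described here set ERalphaKO against wild type mice when both carried an estradiol pellet. It used 6 of the 11 libraries of the study, 3 KO estradiol and 3 WT estradiol, and its members were all genes that passed a filter on low counts, 14531 of the 23420 gene symbols in the count table. The tissue was mandibular condylar fibrocartilage, the load-bearing tissue that covers the jaw joint and holds fibrous, cartilage and mineralizing layers over bone. All mice of all 4 groups were C57BL/6 females, ovariectomized at 6 weeks of age and sampled at 7 weeks. WT estradiol and KO estradiol mice received 17β-estradiol for 1 week from a 0.01 mg pellet made to release over 60 days, and the WT placebo group (2 libraries) and KO placebo group (3 libraries) received placebo for the same time. The labels give the genotype only as WT or ERalphaKO. The deleted part of the gene, the cells it was deleted in, the promoter of any Cre, and whether a sample held tissue of 1 animal or several are not stated in these sources. P-values therefore reflect only how these libraries vary, and that variation may be technical.

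Estrogen receptor alpha, encoded by Esr1, is a nuclear receptor that binds estradiol and then regulates genes through estrogen response elements in DNA or through other bound factors. In the skeleton it is known for holding back bone resorption and for slowing growth cartilage, and estrogen is known to hold back B cell formation in bone marrow. With estradiol present in both genotypes, the comparison asks which of the tissue's transcripts depend on the receptor being there. The same genotype comparison under placebo, which shares no library with it, is given beside it as a background.

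The 6 libraries held 15.7 to 25.5 M counts, and the 3 KO estradiol libraries (17.9, 15.7 and 21.8 M) included the shallowest. Levels below are counts per M of the TMM-scaled library total (CPM) and are compared within a gene, not between genes. On the first principal component of all 11 libraries, with 39.5% of the variance, the WT estradiol libraries lay at -35.8, -30.5 and -37.4, the KO estradiol libraries at 23.9, 51.0 and 31.0, and the 5 placebo libraries between -8.5 and 13.6, so KO estradiol 2 stood farthest from WT. The ribosomal precursor Rn45s took 16.0% of counts in WT placebo 2 and 1.83% to 2.945% in the other placebo libraries. Its share was 2.11% to 3.13% in the 6 estradiol libraries. Marker genes of the labelled tissue were present in all of them. The cartilage collagen Col2a1 stood at 7843 to 14720.4 CPM in WT estradiol and at 4009.9 to 9895 CPM in KO estradiol. Genes of tendon and fibrous layer matrix summed to 93060.3 to 131548 CPM. Osteoblast and osteocyte genes, a list that shares Col1a1 with it, summed to 101274 to 145051 CPM. These sums do not tell the fibrous layer from bone in the samples.

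More genes were higher than lower in KO. Of 14531 genes tested, 1667 (11.5%) differed at an adjusted p under 0.05, of which 1056 (7.27%) were higher and 611 (4.2%) lower in KO. The rises were also larger: 540 genes rose over 2-fold and 257 over 8-fold, whereas 106 fell over 2-fold and 23 over 8-fold. The genes that fell were the more abundant: of 1576 genes at 100 CPM or more, 159 were lower and 54 higher, while of 1406 genes under 1 CPM, 22 were lower and 119 higher. The KO and WT values did not overlap for 1041 of the higher and 610 of the lower genes, and for 5026 of all genes tested. The count fell to 976 without WT estradiol 1, 919 without WT estradiol 3, 867 without KO estradiol 2 and 1072 without KO estradiol 3, with 63.2%, 62.5%, 68.1% and 68.1% of the calls higher in KO. The authors' deposited table for the same comparison held 1959 genes at an adjusted p under 0.05, 1215 higher and 744 lower, and 1514 genes were called in both, all in the same direction.

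**Figure D1:**
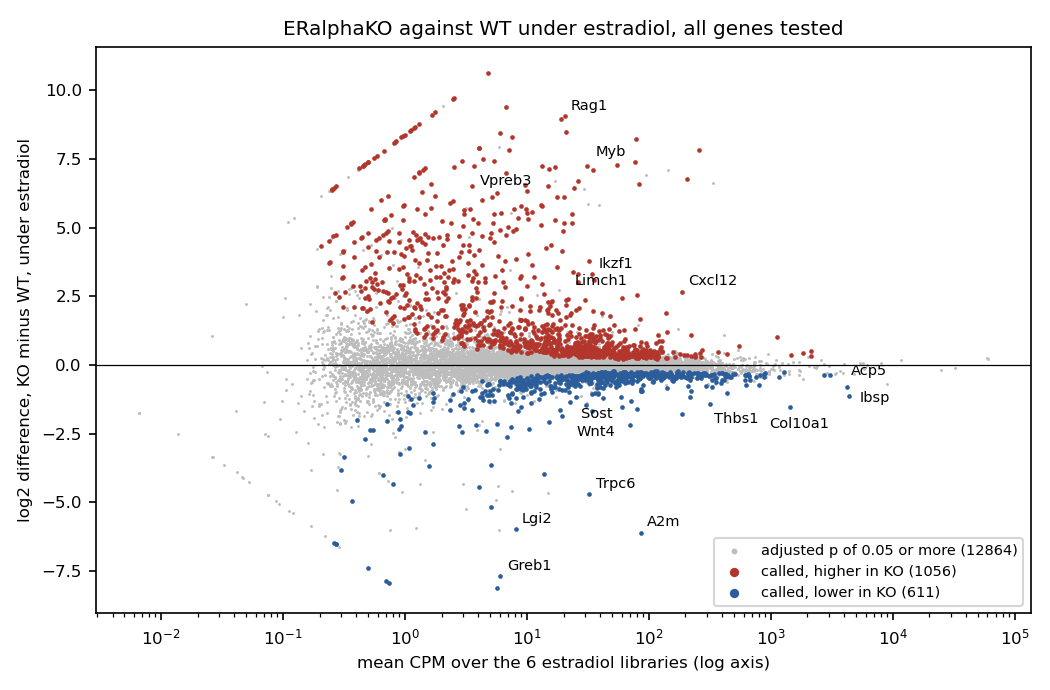
Each point is 1 of the 14531 genes tested, with its mean CPM over the 6 estradiol libraries (x, log axis) and its log2 difference between KO and WT (y). The 1056 genes higher in KO spread furthest at low and middle levels, and the 611 lower ones lie mostly within a 2-fold difference.

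Few genotype differences passed the test without estradiol, where 1 of the 2 WT libraries had the high Rn45s share given above. Under placebo 1 gene of 14531 (0.00688%), A2m, passed the test, with 2 WT and 3 KO libraries. That count was 36 with DESeq2 and 50 without WT placebo 1. The genotype difference under estradiol departed from that under placebo for 167 genes (1.15%), 122 with a more positive and 45 with a more negative difference. Of these, 165 were also called in the estradiol comparison, 120 higher and 45 lower in KO. The count was 68 without WT estradiol 1, 85 without WT estradiol 2, 71 without WT placebo 2, 100 without KO placebo 1 and 270 without KO estradiol 1.

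Esr1 itself was measured first as a check of the labels. It stood at 7.89, 6.76 and 6.43 CPM in the WT estradiol libraries and at 3.41, 2.55 and 3.75 CPM in the KO estradiol libraries. All KO values lay under all WT values, a 2.16-fold lower level (log2 -1.11, SE 0.28, adjusted p = 0.0257). Counts are given per gene symbol, and neither the counting program nor the deleted part is named. Transcripts that lack that part may therefore still be counted, and the level does not show how much receptor remained. The call was lost on leaving out KO estradiol 1 or 2 or any 1 of the WT estradiol libraries (adjusted p at most 0.096). Esr2, which encodes estrogen receptor beta, the other nuclear estrogen receptor, had 1, 0 and 0 counts in WT estradiol and 5, 1 and 0 in KO estradiol, too few to be tested.

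Receptors and coregulators went both ways. Of the 17 tested genes of sex steroid receptors, related receptors and coregulators, Esr1 among them, 2 were higher and 2 lower, with a median log2 difference of -0.01 beside -0.00099 over all genes. Pgr, the progesterone receptor and a textbook estrogen target, was among the lower ones at 0.671, 0.736 and 0.289 CPM in WT and 0, 0 and 0.0894 CPM in KO, a ratio of 16.0 (95% counting interval 4.15 to 137, adjusted p = 0.0422). Its call was lost with DESeq2, with the replicate number as a block, and without WT estradiol 3 or any 1 of the KO estradiol libraries, with adjusted p up to 0.12, and it was too low to be tested without WT estradiol 1 or 2. The coactivators Ncoa1 (log2 0.44, adjusted p = 0.0393) and Ncoa2 (log2 0.52, adjusted p = 0.0491) were the higher ones. The higher count was 1 without WT estradiol 2 and 0 without any other 1 of the 6 libraries, and the lower count was 1 without WT estradiol 3 or KO estradiol 3 and 0 without any other. The glucocorticoid receptor Nr3c1 and the corepressor Nrip1 did not pass, with log2 differences of 0.23 and -0.01.

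Among the deepest falls were genes near 0 in every group but WT estradiol. Greb1, a classical estrogen receptor target of breast and uterus, stood at 13.6, 12.5 and 10.2 CPM in WT estradiol and at 0.112, 0.0594 and 0 CPM in KO estradiol. The ratio was 230 (95% counting interval 78.6 to 1119, adjusted p = 6.55e-06). Sftpa1, a secreted surfactant protein best known from lung, stood at 10.4, 14.2 and 9.23 CPM in WT and at 0, 0 and 0.0894 CPM in KO, a ratio of 319 (88.1 to 2640). Lgi2, a secreted leucine-rich repeat protein, was 63.5-fold lower at 0.167, 0.297 and 0.268 CPM in KO against 16.6, 18.6 and 12.6 CPM in WT (log2 -5.99, SE 0.35, adjusted p = 1.9e-06). In all 3 genes the lowest WT value was far above the highest KO value, and the placebo libraries of both genotypes lay between 0 and 0.592 CPM.

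Trpc6, a calcium-permeable cation channel, gave the smallest adjusted p among the genes named here. Its level was 62.5, 65.2 and 60.6 CPM in WT estradiol and 1.62, 2.26 and 3.17 CPM in KO estradiol, 26.3-fold lower (log2 -4.72, SE 0.18, adjusted p = 5.76e-08). The placebo libraries held 3.66 and 4.29 CPM in WT and 2.75, 2.67 and 2.97 CPM in KO, so only the WT estradiol libraries were high. The genotype difference under estradiol departed from that under placebo by -4.22 on the log2 scale (adjusted p = 3.06e-05). In the list of mechanosensitive and TRP channels, 2 of 15 tested members were lower, Trpc6 and the stretch-activated potassium channel Kcnk2, which was 2.04-fold lower (adjusted p = 0.000303). Piezo1 and Piezo2, which open under membrane tension, had log2 differences of -0.11 and -0.44 and did not pass.

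A2m, alpha-2-macroglobulin, a secreted protein that traps proteases, was lower in KO with and without the hormone. It stood at 165, 215 and 129 CPM in WT estradiol and at 2.29, 1.96 and 2.99 CPM in KO estradiol, 69.1-fold lower (log2 -6.11, SE 0.23, adjusted p = 1.81e-07). Under placebo WT held 28.9 and 23.3 CPM and KO held 3.34, 2.67 and 2.55 CPM (log2 -3.19, adjusted p = 0.000352). The 2 differences themselves differed by -2.92 on the log2 scale (adjusted p = 0.00177). Other genes among the 15 largest falls were Asb4, an ankyrin repeat protein (36.3-fold), the myosin Myo5c (21.9-fold), Pi15, a secreted peptidase inhibitor family member (15.6-fold), the phosphatase Ppef1 (12.8-fold), the synaptic scaffold Shank2 (12.6-fold), Coch (7.44-fold) and Aldh1a2, which makes retinoic acid (6.17-fold). Tnnc1, a troponin of slow muscle, was 5.51-fold lower, and the summed level of skeletal muscle genes was 44.7 to 329 CPM in WT and 16.4 to 22.0 CPM in KO.

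**Figure D2:**
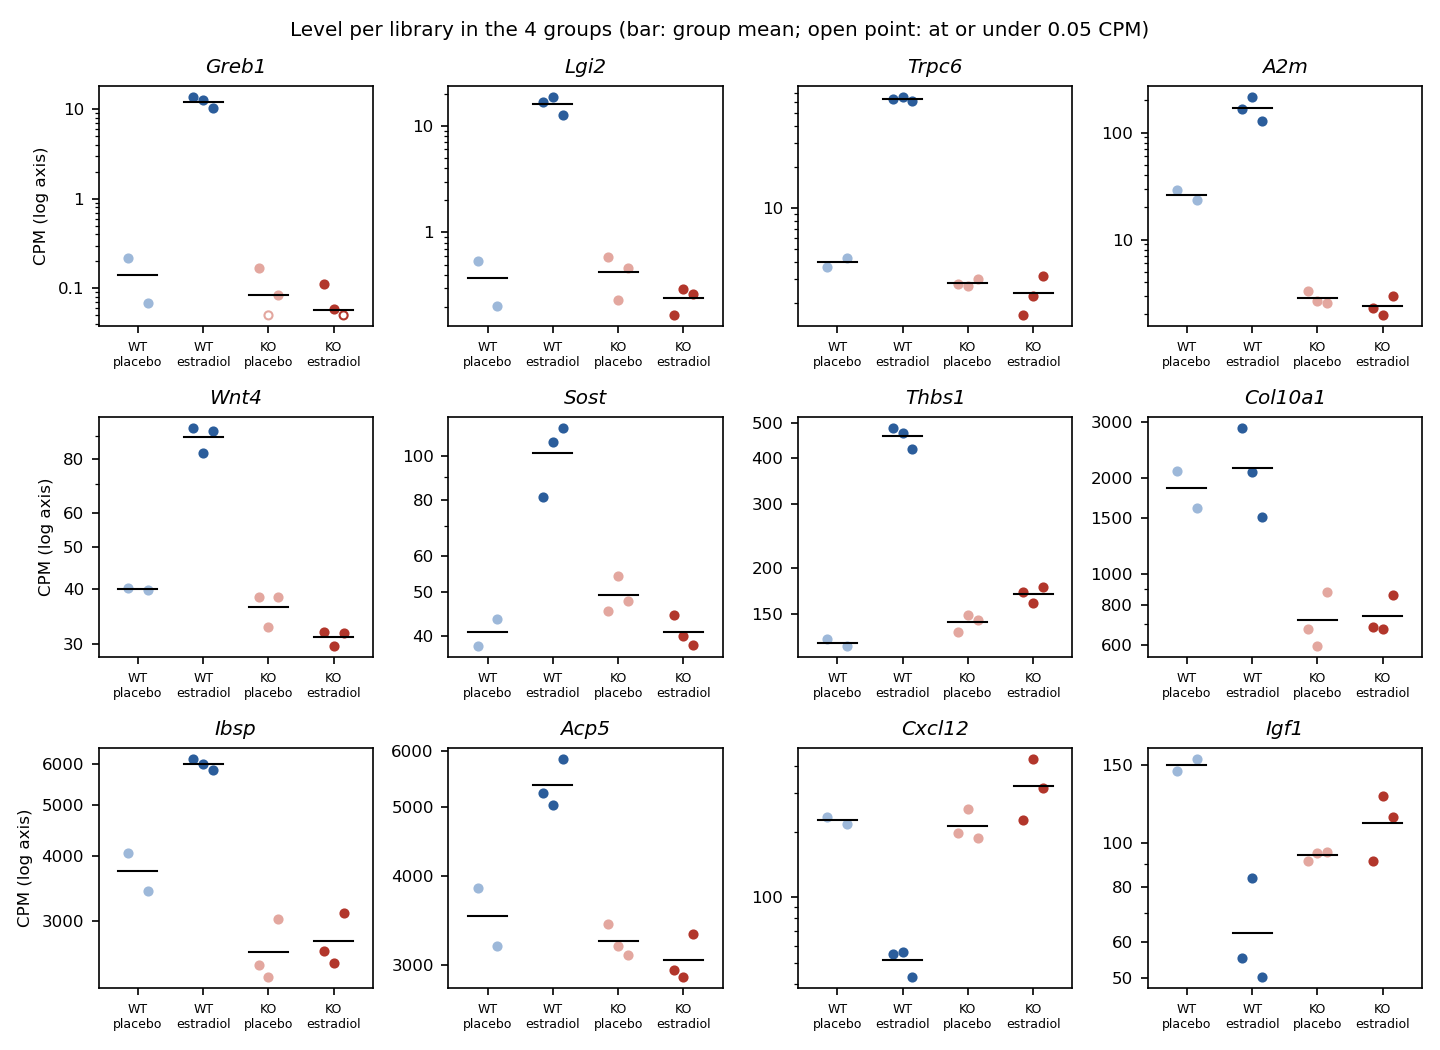
CPM (y, log axis) of 12 genes in each of the 11 libraries, grouped by genotype and agent, with a bar at the group mean. Greb1, Lgi2, Trpc6, Wnt4, Sost and Thbs1 are high only in the 3 WT estradiol libraries, A2m and Col10a1 are lower in KO under both agents, and Cxcl12 is low only in WT estradiol.

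Several of these genes belong to a list of 17 that estradiol raised in WT in an earlier analysis of these samples, which uses the same 3 WT estradiol libraries and so is no independent evidence of direction. All 17 had lower KO values with no overlap, 16 of them called, with a median log2 difference of -3.65, and the count was 16 without any 1 of the 6 libraries. Lox, a collagen crosslinker, was the member not called (log2 -0.33, adjusted p = 0.07). Against this, the 27 tested members of a list of estrogen-responsive genes of other tissues went both ways, with 4 higher and 6 lower and a median of -0.13. Greb1, Pgr, Wnt4, Vegfa, the protease Ctsd and the receptor partner Ramp3 were lower. Cxcl12, Igf1, the complement gene C3 and Lcn2 were higher, of which Lcn2 is also a neutrophil granule gene. The higher count was 2 without WT estradiol 1 or 3, and the lower count was 3 without KO estradiol 2. Classical members such as Myc, Ccnd1, Xbp1 and Nrip1 did not pass, with log2 differences of 0.09, -0.25, -0.28 and -0.01.

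The promoters of 4 genes that fell are shown as examples, because the missing receptor is one that binds DNA. They are from RefSeq on GRCm38.p6 (the counts were made on mm9), 250 bases before to 50 bases after the annotated start, 5′ to 3′ on the strand of the gene, with the core motif of the estrogen response element, GGTCA or its reverse complement TGACC, in capitals. Greb1 lies on chromosome 12 (chr12:16800837-16801136, minus strand) and has another annotated start, Lgi2 on chromosome 5 (chr5:52566257-52566556, minus strand), Sost on chromosome 11 (chr11:101966966-101967265, minus strand) and Trpc6 on chromosome 9 (chr9:8543892-8544191, plus strand).
Greb1: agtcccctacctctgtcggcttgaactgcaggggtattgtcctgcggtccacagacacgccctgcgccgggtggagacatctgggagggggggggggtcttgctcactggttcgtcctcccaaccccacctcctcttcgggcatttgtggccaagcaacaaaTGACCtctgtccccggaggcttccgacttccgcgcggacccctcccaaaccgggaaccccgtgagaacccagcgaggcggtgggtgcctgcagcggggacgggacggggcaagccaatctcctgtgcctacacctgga
Lgi2: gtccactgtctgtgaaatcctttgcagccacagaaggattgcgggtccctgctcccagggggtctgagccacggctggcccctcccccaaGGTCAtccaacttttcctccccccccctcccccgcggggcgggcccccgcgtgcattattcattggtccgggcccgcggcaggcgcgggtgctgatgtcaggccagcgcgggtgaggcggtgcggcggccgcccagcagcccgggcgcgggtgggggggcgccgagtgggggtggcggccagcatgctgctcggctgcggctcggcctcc
Sost: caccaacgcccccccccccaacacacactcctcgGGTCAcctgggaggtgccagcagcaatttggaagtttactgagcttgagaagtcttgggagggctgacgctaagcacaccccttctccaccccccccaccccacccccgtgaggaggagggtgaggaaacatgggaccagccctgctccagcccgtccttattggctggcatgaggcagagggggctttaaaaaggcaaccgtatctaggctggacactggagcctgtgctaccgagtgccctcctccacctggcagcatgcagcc
Trpc6: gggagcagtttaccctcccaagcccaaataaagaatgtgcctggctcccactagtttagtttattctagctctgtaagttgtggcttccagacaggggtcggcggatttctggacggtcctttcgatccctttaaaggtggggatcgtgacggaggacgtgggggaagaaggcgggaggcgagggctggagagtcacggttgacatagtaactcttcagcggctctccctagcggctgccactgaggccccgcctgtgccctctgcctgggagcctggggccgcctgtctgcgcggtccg
The core motif begins at -88 in Greb1, at -160 in Lgi2 and at -216 in Sost, counted from the start, and the Trpc6 window holds none. Among other genes that fell, the windows of Sftpa1 and Myo5c hold 1 each, and those of Wnt4, Asb4 and Pgr hold none. Promoters were matched by symbol for 10712 (73.7%) of the genes tested. The core motif was present on either strand in 45.8% of the 461 lower genes, 43.1% of the 768 higher genes, 42.2% of the 10712 genes tested and 43.6% of all 27025 genes in the promoter table. It was in 17 of the 34 lower genes whose difference also departed from that under placebo, and these shares were not tested against each other. The full element (GGTCA, any 3 bases, TGACC) was in 0.074% of all genes in the table and in 1 of the 10712 tested, which was not a called gene. A match is a run of letters and not a bound site, and these windows leave out distant enhancers.

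Signalling genes of bone and cartilage were next. Wnt4, a Wnt ligand, stood at 94.1, 82.5 and 92.6 CPM in WT estradiol and at 31.9, 29.6 and 31.8 CPM in KO estradiol, 2.89-fold lower (log2 -1.53, SE 0.087, adjusted p = 1.53e-06). Sost, the osteocyte gene for sclerostin, which blocks Wnt coreceptors, stood at 81.3, 108 and 115 CPM in WT and at 44.6, 39.9 and 38.1 CPM in KO, 2.48-fold lower (log2 -1.31, SE 0.13, adjusted p = 7.83e-05). For both genes KO estradiol lay near the placebo libraries of either genotype, which ran from 32.8 to 40.2 CPM for Wnt4 and from 37.9 to 54.3 CPM for Sost, and only WT estradiol was high. The genotype difference under estradiol departed from that under placebo by -1.40 for Wnt4 (adjusted p = 0.000477) and -1.58 for Sost (adjusted p = 0.00177).

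Over the whole Wnt list, 7 of 34 tested members were higher and 4 lower, with a median log2 difference of 0.17. The ligand trap Wif1 was 1.61-fold higher (407, 400 and 461 CPM in WT, 743, 569 and 725 CPM in KO, adjusted p = 0.00181). The feedback inhibitor Nkd2 was 1.71-fold higher (adjusted p = 0.00146), and the sclerostin receptor Lrp4 was lower (log2 -0.94, adjusted p = 0.0032). Lgr5, an R-spondin receptor chosen here after its values were seen, was 9.84-fold higher at 8.65, 6.59 and 5.68 CPM against 0.434, 1.47 and 0.247 CPM. Wnt10a and Wnt16 were also higher (log2 1.56 and 1.34), while Axin2, the usual readout of Wnt activity, did not pass (log2 0.35, adjusted p = 0.24). The count of higher members was 3 without WT estradiol 3 and 4 without WT estradiol 1, WT estradiol 2, KO estradiol 2 or KO estradiol 3.

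In the IGF and growth hormone axis, 5 of 20 tested members were higher and 2 lower, with a median of 0.06. Igf1, the growth factor of the axis, stood at 55.3, 83.5 and 50.1 CPM in WT and at 91.3, 128 and 114 CPM in KO, 1.77-fold higher (log2 0.82, SE 0.17, adjusted p = 0.0125). Its groups did not overlap, and the call was lost without WT estradiol 1 or 3 (adjusted p up to 0.0516). Under placebo the order was the other way, with 145 and 154 CPM in WT and 91.1 to 95.6 CPM in KO (log2 -0.67, adjusted p = 0.468), and the 2 differences differed by 1.49 (adjusted p = 0.0201), a call lost without either WT placebo library, WT estradiol 1 or KO placebo 1. Pappa, a protease that frees IGF from its binding proteins, was 2.48-fold higher (adjusted p = 0.00259). Socs2, which restrains growth hormone signalling, was 1.74-fold lower at 34.9, 37.0 and 46.2 CPM against 65.3, 70.5 and 69.6 CPM (adjusted p = 0.000844). The binding proteins Igfbp2, Igfbp4 and Igfbp5 were higher and Igfbp7 lower, and the higher count of 5 fell to 1 without WT estradiol 1 or 3, to 2 without KO estradiol 2 or 3 and to 3 without WT estradiol 2. The lower count was 1 without any 1 of the 6 libraries other than KO estradiol 1.

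Of 38 tested members of TGF-beta and BMP signalling, 2 passed, both higher, with a median log2 difference of 0.01. Over all genes tested 7.27% were higher, so the list had no larger share than all genes. Bmp5 was 2.07-fold higher at 15.7, 18.8 and 13.4 CPM against 6.63, 8.88 and 7.58 CPM (adjusted p = 0.00377). Bmp7, the other, was 1.42-fold higher (adjusted p = 0.0468) and lost its call in 11 of 17 refits, among them those without WT estradiol 2 or 3 or any 1 of the KO estradiol libraries. The receptors Tgfbr1, Tgfbr2 and Bmpr1a and the target Id1 had log2 differences of -0.08, -0.15, 0.10 and 0.07 and did not pass.

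Genes of cartilage matrix and of the mineralizing zone were tested as separate lists. Of 24 tested genes of chondrocyte matrix and SOX factors, 1 was higher and 1 lower, and 4 of the 24 fitted differences were above 0. The shares over all genes tested were 7.27% higher and 4.2% lower. The lower count depended on the fit and was 7 with the replicate number as a block. Col2a1, the main cartilage collagen, had a log2 difference of -0.70 (SE 0.39, adjusted p = 0.292), the proteoglycan Acan -0.35 (adjusted p = 0.471) and the master factor Sox9 0.02 (adjusted p = 0.969), and the median of the list was -0.48. Matn4, a matrix adaptor, was 2.01-fold higher at 20.7, 16.4 and 19.0 CPM against 10.3, 8.42 and 9.15 CPM (adjusted p = 0.00239), and Matn1 was lower (adjusted p = 0.023), a call lost without WT estradiol 1 or 2 or any 1 of the KO estradiol libraries. Prg4, the joint lubricant, had a log2 difference of -0.33 and did not pass (adjusted p = 0.642).

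Of the 17 tested genes of hypertrophic and mineralizing chondrocytes, 7 passed and all of those were lower, with a median of -0.13. Col10a1, the collagen of hypertrophic chondrocytes, stood at 2878, 2086 and 1511 CPM in WT and at 681, 676 and 862 CPM in KO, 2.92-fold lower (log2 -1.55, SE 0.23, adjusted p = 0.00256). Ihh, the signal sent by cells entering hypertrophy, was 2.24-fold lower at 18.2, 12.2 and 16.2 CPM against 45.0, 32.7 and 27.0 CPM (adjusted p = 0.00915). Ibsp, the bone sialoprotein that seeds mineral, was 2.18-fold lower at 2638, 2493 and 3111 CPM against 6134, 5998 and 5842 CPM (adjusted p = 0.000174). Groups did not overlap in any of these 3 genes. Mgp, which inhibits mineralization, was 1.73-fold lower, Pth1r, the receptor of parathyroid hormone-related protein, 1.48-fold lower, and Alpl and Vegfa 1.37-fold and 1.32-fold lower. Runx2, Mmp13, Spp1 and Phex did not pass, with log2 differences of 0.14, 0.03, 0.05 and 0.04.

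Col10a1 and Ihh differed between the genotypes about as much without the hormone. Under placebo Col10a1 stood at 2107 and 1615 CPM in WT and at 675, 594 and 881 CPM in KO (log2 -1.38, adjusted p = 0.348), and Ihh at 30.6 and 33.9 CPM in WT and 10.8, 11.2 and 17.5 CPM in KO (log2 -1.29, adjusted p = 0.387). Neither passed there, though KO and WT placebo values did not overlap for either gene, and the difference of the differences was -0.17 (adjusted p = 0.932) for Col10a1 and 0.13 (adjusted p = 0.957) for Ihh. In the hedgehog and PTHrP list, 1 of 15 tested members was higher and 3 were lower, Ihh, Pth1r and Dhh. The shares over all genes tested were 7.27% higher and 4.2% lower. Gas1, a hedgehog coreceptor, was 1.34-fold higher (adjusted p = 0.00878), and the higher count was 2 without WT estradiol 1. The hedgehog targets Gli1 and Ptch1 did not pass (log2 -0.23 and -0.33), nor did the ligand gene Pthlh (log2 0.59, adjusted p = 0.23).

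Genes of bone-forming and bone-resorbing cells were tested separately. In the osteoblast and osteocyte list 3 of 17 tested members passed, all lower: Sost, Ifitm5, a membrane protein of osteoblasts (1.47-fold, adjusted p = 0.00803), and Alpl (1.37-fold, adjusted p = 0.0175), with a list median of 0.08. The osteoblast factors Sp7 and Runx2 and the main bone collagen Col1a1 did not pass (log2 -0.16, 0.14 and 0.24). Osteoclast genes, which serve bone resorption, were lower in 8 of 16 tested members, with a median of -0.37 and 13 of 16 without overlap. Over all genes tested, 4.2% were lower and 5026 of 14531 had no overlap. Acp5, the tartrate-resistant acid phosphatase, stood at 5234, 5031 and 5850 CPM in WT and at 2951, 2879 and 3312 CPM in KO, 1.76-fold lower (log2 -0.82, SE 0.10, adjusted p = 0.000491). The fusion proteins Ocstamp and Dcstamp were 1.66-fold and 1.54-fold lower, and the proton pump subunit Atp6v0d2 1.47-fold lower at 169, 174 and 187 CPM against 250.2, 264 and 267 CPM. Oscar, Tnfrsf11a, Ctsk and Tcirg1 made up the rest of the 8, and Nfatc1, the master factor, did not pass (log2 -0.15). Csf1, the growth factor of osteoclasts and macrophages, was 1.80-fold lower at 87.0, 94.97 and 124 CPM against 171, 186 and 192 CPM (adjusted p = 0.000856), while Tnfsf11 and Tnfrsf11b, the RANKL and osteoprotegerin genes, did not pass (log2 0.14 and -0.11). RNA was taken from whole tissue, so here and in all cell type lists fewer cells of a type and less RNA per cell cannot be told apart.

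Most called macrophage genes were lower, as were the called osteoclast genes, but the summed macrophage level overlapped between the groups. That sum was 1502, 1469 and 1815 CPM in WT estradiol and 1145, 1892 and 1500 CPM in KO estradiol. Of 20 tested macrophage and monocyte genes, 10 were lower and 1 higher, with a median of -0.51. Siglec1, a sialic acid receptor of tissue macrophages, was 3.13-fold lower at 8.99, 8.25 and 9.88 CPM against 32.7, 26.1 and 26.2 CPM (adjusted p = 0.000207). The chemokine receptor Cx3cr1 was 2.05-fold lower (adjusted p = 0.00018), the complement gene C1qc 1.94-fold lower (adjusted p = 0.00592) and the macrophage glycoprotein Cd68 lower by 0.58 on the log2 scale (adjusted p = 0.00146). Csf1r, the receptor of Csf1, was lower by 0.47 on the log2 scale (adjusted p = 0.0081). Ccr2, found on blood monocytes and their progenitors, was the higher member (log2 3.56, adjusted p = 0.019), and its call was lost without WT estradiol 1, 2 or 3 while 3 members were higher without KO estradiol 1. The count of lower members was 6 without KO estradiol 2.

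Matrix and vessel genes changed in part, and the counts below stand beside shares of 7.27% higher and 4.2% lower over all genes tested. In the tendon and fibrous layer list 1 of 23 tested members passed, Dcn, the proteoglycan decorin, at 2078, 2182 and 2089 CPM in KO against 1437, 1523 and 1697 CPM in WT, 1.36-fold higher (adjusted p = 0.00708). Collagen crosslinking and processing genes were lower in 3 of 23, led by the crosslinker Loxl1 (1.38-fold, adjusted p = 0.00994). Bmp1 and P4ha3, which process and hydroxylate collagen, were the others, the median was -0.28, and the count was 1 without WT estradiol 1, WT estradiol 2, KO estradiol 2 or KO estradiol 3. Among 23 proteases and inhibitors, 4 were lower (A2m, Mmp23, Timp1 and Adamts15) and 2 higher (Timp2 and Mmp2), and the 5 other than A2m differed by -0.65 to 0.35 on the log2 scale. The lower count was 1 without KO estradiol 2 and 2 without WT estradiol 2 or KO estradiol 3, and the higher count was 0 without WT estradiol 3 or KO estradiol 2 and 1 without WT estradiol 2, KO estradiol 1 or KO estradiol 3. The endothelial list had 5 of 22 members lower, with a median of -0.27. Egfl7, a factor secreted by vessel cells, stood at 63.3, 60.8 and 67.8 CPM in WT and at 42.5, 43.4 and 42.5 CPM in KO, 1.49-fold lower (adjusted p = 0.00104). Emcn, a sialomucin of capillaries, was 1.52-fold lower, Esam 1.45-fold and the tight junction gene Cldn5 1.87-fold, with Tie1 as the other, and KO lay under WT in every library for Emcn, Esam and Cldn5.

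Genes of blood cells were tested as several lists. All 21 tested B cell lineage genes were higher in KO, with a median log2 difference of 5.52. Rag1, part of the recombinase that assembles antigen receptors, stood at 0.0395, 0.184 and 0 CPM in WT estradiol and at 55.3, 38.1 and 29.0 CPM in KO estradiol, 535-fold higher (log2 9.06, SE 0.77, adjusted p = 0.000216). Vpreb3, a part of the precursor B cell receptor, was 152-fold higher at 32.9, 32.0 and 14.8 CPM against 0.0789, 0.322 and 0.124 CPM, and the lineage factor Pax5 36.0-fold higher at 8.93, 9.62 and 4.83 CPM (adjusted p = 6.88e-05). Summed over the list, WT estradiol held 30.0, 33.8 and 33.8 CPM and KO estradiol 651, 622 and 361 CPM. The placebo libraries held 129 and 105 CPM in WT and 375, 302 and 164 CPM in KO, all above WT estradiol. The number of called members was 20 without WT estradiol 3 and 21 without any other 1 of the 6 libraries.

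Granulocyte genes behaved less evenly. Of 22 tested neutrophil granule genes 17 were higher, with a median of 6.89, and in all 22 the KO values lay above the WT values. Fcnb, a member of the list, had 1 count in WT estradiol and stood at 4.63, 25.7 and 10.5 CPM in KO estradiol. The ratio was 936 (95% counting interval 168 to 37036, adjusted p = 0.00459). Csf3r, the receptor of the neutrophil growth factor, was 17.7-fold higher at 12.8, 66.5 and 30.7 CPM against 1.89, 2.35 and 1.98 CPM (adjusted p = 0.0117). The summed list stood at 11.6, 52.0 and 13.7 CPM in WT and at 1471, 5229 and 1846 CPM in KO, and at 254, 554, 4.14, 841 and 192 CPM in the placebo libraries, so libraries of 1 group differed by many fold. The count of called members was 2 without WT estradiol 1 or 3, 6 without WT estradiol 2, KO estradiol 2 or KO estradiol 3, 10 without KO estradiol 1, and 3 with limma-voom.

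Basophil, mast cell and eosinophil genes were higher in 10 of 15 tested members. Prss34, a basophil protease, had 0 counts in all WT estradiol libraries and stood at 3.24, 4.39 and 2.32 CPM in KO, at least 26.2-fold higher against 3 counts per WT library (adjusted p = 0.000641). Mcpt8, another basophil protease, was at least 13.1-fold higher by the same measure. In the placebo libraries the order was the opposite, with 1.94 and 4.56 CPM of Prss34 in WT and 0, 0.141 and 0 CPM in KO, and the genotype differences under the 2 agents differed (adjusted p = 0.00106). Prg3, an eosinophil granule protein, was at least 75.6-fold higher, but that call was lost in 9 of 17 refits, among them those without WT estradiol 1, 2 or 3. The list's count was 6 without KO estradiol 2 or 3. Its median log2 difference was 4.62, or 3.51 with members at 0 in WT set at their bounds.

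Erythroid and platelet genes varied between the KO libraries. Of 16 tested erythroid genes 5 were higher, with Gata1, the red cell and platelet factor, at 0.335, 5.88 and 3.53 CPM in KO and 0.0789, 0 and 0 CPM in WT, a ratio of 115 (31.4 to 956, adjusted p = 0.0156). The count was 0 without any 1 of the WT estradiol libraries, 1 without KO estradiol 2 or 3 and 14 without KO estradiol 1. At an unadjusted p under 0.05, 14 of the 16 were higher, and DESeq2 called 12 and limma-voom 0. Megakaryocyte and platelet genes were higher in 7 of 14, and that count was 0 without KO estradiol 2, 1 without WT estradiol 1, WT estradiol 3 or KO estradiol 3, 2 without WT estradiol 2 and 11 without KO estradiol 1. KO estradiol 1 held the lowest erythroid sum of the 6 libraries, 292 CPM, against 649 and 700.3 CPM in the other KO libraries and 338 to 419 CPM in WT.

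Some progenitor genes rose as well. Of 16 tested blood progenitor genes 6 were higher and 1 lower. Myb, a factor of dividing blood progenitors, stood at 0.395, 0.598 and 0.247 CPM in WT estradiol and at 77.8, 70.5 and 38.5 CPM in KO estradiol, 150-fold higher (log2 7.23, SE 0.42, adjusted p = 1.15e-05). Placebo libraries held 12.0 and 11.7 CPM in WT and 28.8, 20.6 and 16.0 CPM in KO, above WT estradiol and under KO estradiol in every library. Ikzf1, a lymphoid factor, was 9.88-fold higher (adjusted p = 0.000316), and Gfi1b had 0 counts in WT estradiol and was at least 15.1-fold higher. Cd34, which also marks vessels, was the lower member (log2 -0.36, adjusted p = 0.017), a call lost without WT estradiol 1 or KO estradiol 3. In the T and NK cell list 4 of 8 tested members were higher, among them Nkg7 (24.3-fold) and Il2rb (8.29-fold), and Cd4 was lower (1.57-fold). That higher count was 2 without WT estradiol 1, and the Cd4 call was lost without WT estradiol 2. Outside the lists, the chromatin gene Cecr2 was 354-fold higher at 58.0, 42.6 and 25.1 CPM against 0.0395, 0.138 and 0.165 CPM (adjusted p = 0.000312). Tmprss3, a membrane protease, had 0 counts in WT estradiol and was at least 40.04-fold higher.

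**Figure D3:**
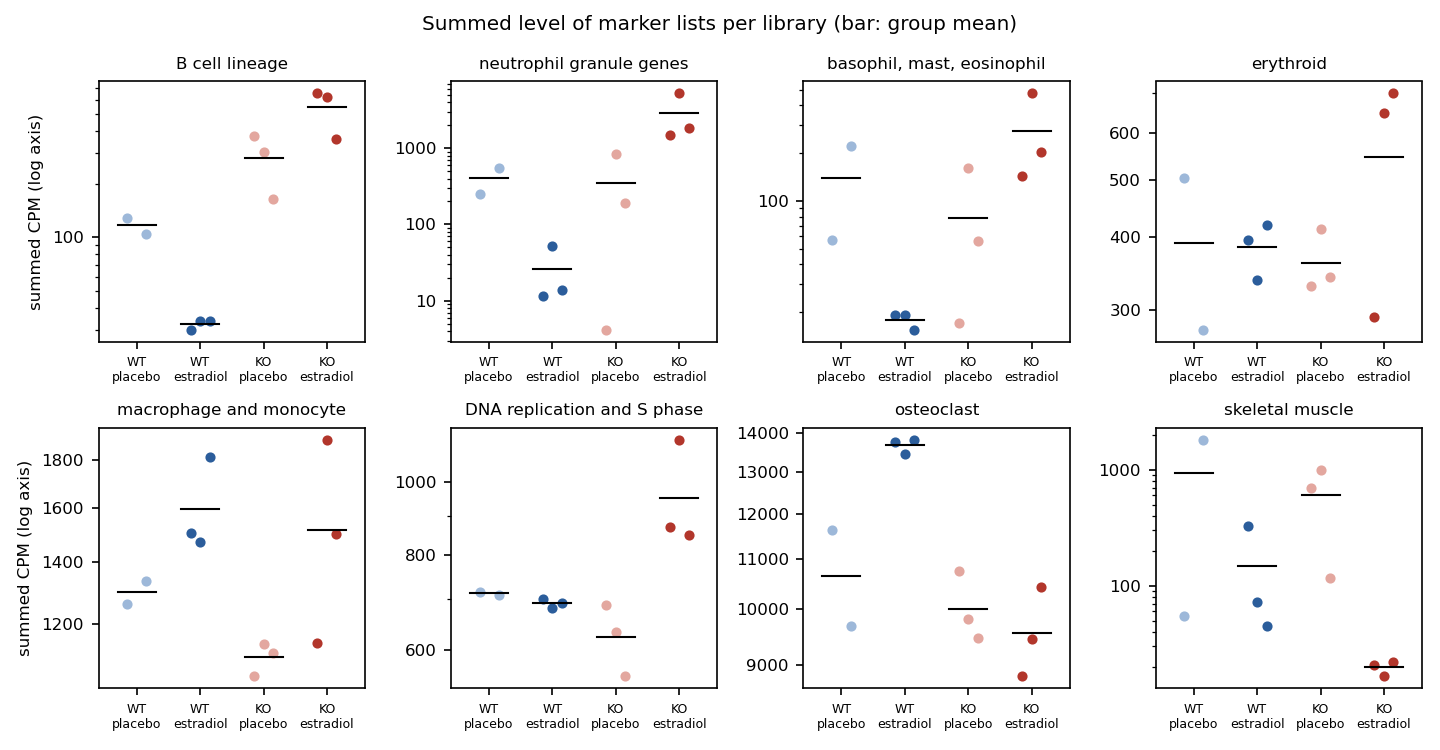
CPM summed over the tested and untested members of 8 marker lists (y, log axis) in each of the 11 libraries, with a bar at the group mean. The B cell sum is 30.0 to 33.8 CPM in WT estradiol and 361 to 651 CPM in KO estradiol, the neutrophil sum spreads widely within groups, and the skeletal muscle sum is lowest in the 3 KO estradiol libraries.

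Antigen presentation by MHC class II, which dendritic cells, macrophages and B cells share, had mixed values. Of 15 tested genes 6 were higher and 1 lower. H2-Ob, found in B cells, was 8.88-fold higher at 7.65, 7.48 and 4.51 CPM against 0.671, 0.736 and 0.783 CPM (adjusted p = 0.000145). The class II chains H2-Aa, H2-Ab1 and H2-Eb1 and the invariant chain Cd74 did not pass, with log2 differences of 0.09, 0.13, 0.14 and -0.17. The count of higher members was 3 without any 1 of the WT estradiol libraries or KO estradiol 3 and 2 without KO estradiol 2. Itgax, of dendritic cells, was the lower member (log2 -0.54, adjusted p = 0.0152), a call lost without WT estradiol 3, KO estradiol 2 or KO estradiol 3.

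Factors that marrow stroma makes for blood cells were tested as a list. Of 18 tested members 5 were higher and 2 lower, with a median of 0.12. Cxcl12, the chemokine that retains blood progenitors and B cell precursors, stood at 54.7, 56.2 and 42.8 CPM in WT estradiol and at 226, 432 and 318 CPM in KO estradiol, 6.35-fold higher (log2 2.67, SE 0.22, adjusted p = 8.06e-05). Placebo libraries held 235 and 216 CPM in WT and 197, 253 and 188 CPM in KO, so WT estradiol alone was low (difference of differences 2.75, adjusted p = 0.00243). Ebf3, a factor of marrow stroma, was 2.62-fold higher (adjusted p = 0.00058), Vcam1, an adhesion receptor, 1.74-fold (adjusted p = 0.0045), and Lepr and Il7 were also higher (log2 0.54 and 1.18). Csf1 and Foxc1 were the lower ones. The marrow fat genes Adipoq and Pparg were 27.6-fold and 2.58-fold higher. They were 2 of the 3 called among 15 adipocyte and lipid droplet genes, a count of 1 without WT estradiol 1 or 3. The other 12 were not called, and the list median was 0.15. The summed adipocyte level overlapped, at 728, 756 and 699 CPM in WT estradiol and 716, 698 and 704 CPM in KO estradiol. The summed B cell and neutrophil levels given above were also higher in KO estradiol than in WT estradiol. Within KO estradiol the B cell sum was highest in KO estradiol 1, where Cxcl12 was lowest. The neutrophil sum was highest in KO estradiol 2, where Cxcl12 was highest. The part of these blood cells in the result was not tested.

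Some cell cycle genes were higher in KO. Of 39 tested genes of DNA replication and S phase 14 passed, all higher, with a median log2 difference of 0.42 and 37 of 39 above 0. Rrm2, a ribonucleotide reductase subunit, stood at 37.6, 37.8 and 34.8 CPM in WT and at 59.3, 73.2 and 51.9 CPM in KO, 1.67-fold higher (log2 0.74, SE 0.11, adjusted p = 0.00174). Uhrf1, which maintains DNA methylation, was 2.18-fold higher, the repressor E2f8 2.47-fold and the helicase subunit Mcm2 1.65-fold. Under placebo KO lay slightly under WT for Rrm2 (log2 -0.47, adjusted p = 0.468), and the 2 differences differed by 1.21 (adjusted p = 0.00491). Of 40 mitosis genes 6 passed, all higher, with a median of 0.30. Mki67, the proliferation marker, was 1.83-fold higher at 182, 178 and 138 CPM against 111, 97.7 and 63.6 CPM (adjusted p = 0.0182), and Top2a 1.48-fold (adjusted p = 0.0288).

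These counts rested on few libraries. The S phase count was 5 without KO estradiol 2, 6 without WT estradiol 3, 8 without WT estradiol 2 and 9 without WT estradiol 1, and the mitosis count was 0 without KO estradiol 1 or 2, 1 without WT estradiol 3, 2 without WT estradiol 2 and 9 without KO estradiol 3. At an unadjusted p under 0.05, 12 mitosis genes were higher in the full fit, and DESeq2 called 7 and limma-voom 5. The summed S phase level was 701, 682 and 692 CPM in WT and 871, 1135 and 852 CPM in KO in libraries 1, 2 and 3, with the highest value in KO estradiol 2, which also had the highest neutrophil sum. The summed mitosis level was 1540, 1267 and 1119 CPM in WT and 1986, 1727 and 1368 CPM in KO, and the groups overlapped. The highest value was in KO estradiol 1, which had the lowest neutrophil sum of the KO estradiol libraries but the highest B cell sum. The B cell sum was 651, 622 and 361 CPM in KO estradiol 1, 2 and 3, the same order as the mitosis sum. The part of the blood lineages in the cell cycle result was not tested.

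Skeletal muscle genes spread widely within groups. The fitted difference was toward lower KO levels in all 21 tested members, with a median log2 difference of -3.08. There was no overlap in 15 of them, beside 5026 of all 14531 genes tested. None passed in edgeR's test, at an unadjusted p under 0.05, or in limma-voom, while DESeq2 called 8 lower. Their summed level was 329, 72.2 and 44.7 CPM in WT estradiol, 20.8, 16.4 and 22.0 CPM in KO estradiol and 54.5 to 1813 CPM in the placebo libraries. Tnnc1, a slow muscle transcript, is not in this list. It was higher in the WT placebo library with the larger sum, but did not follow the sum within WT estradiol or KO placebo. It stood at 2.57, 1.89 and 3.01 CPM in WT estradiol and at 0.431 and 1.22 CPM in WT placebo. In KO placebo it stood at 0.507, 0.469 and 0.467 CPM. The part of muscle tissue in its difference was not tested.

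The next counts stand beside shares of 7.27% higher and 4.2% lower over all genes tested. Of 20 interferon-stimulated genes 2 were lower. Bst2, a membrane protein that tethers viruses and is also known from bone cells, was 2.72-fold lower at 16.5, 16.0 and 16.8 CPM against 41.2, 44.8 and 48.3 CPM (adjusted p = 3.33e-06), while Irf7 and Isg15 had log2 differences of -0.26 and -0.38 and did not pass. The count was 1 without WT estradiol 3, KO estradiol 1 or KO estradiol 2. Of 23 immediate early genes 1 passed, Btg2, which slows proliferation (2.42-fold higher, adjusted p = 0.000181), with 2 without KO estradiol 1. Of 23 hypoxia and glycolysis genes 3 were lower, led by the vasodilator peptide gene Adm (2.22-fold, adjusted p = 0.00783), a count that was 1 without WT estradiol 1, WT estradiol 2 or KO estradiol 2 and 6 without KO estradiol 1. Smooth muscle and pericyte genes had 1 higher, Notch3 (1.76-fold, adjusted p = 0.00806), and 1 lower, Abcc9, of 11, and the Abcc9 call was lost without WT estradiol 1, WT estradiol 2, KO estradiol 2 or KO estradiol 3. The Schwann cell and nerve list had 2 of 9 higher, Gfap among them, a count that was 0 without any 1 of the WT estradiol libraries or KO estradiol 2.

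**Figure D4:**
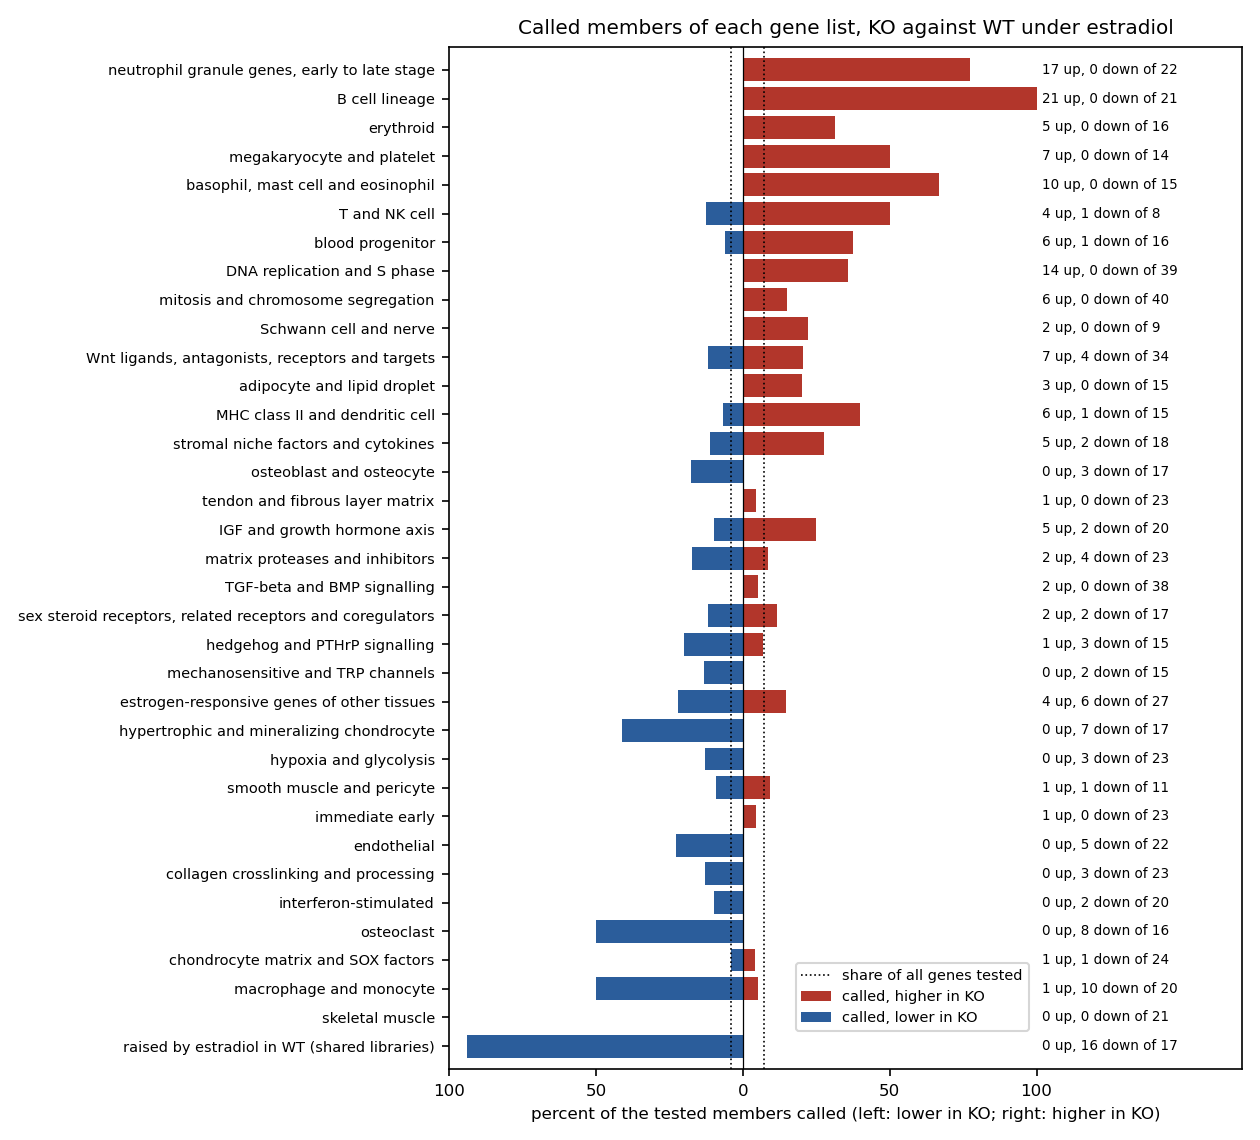
For each of 35 gene lists, the percent of its tested members called higher in KO (right) and lower in KO (left), ordered by median log2 difference, with dotted lines at the shares over all genes tested, 7.27% and 4.2%. B cell lineage (21 of 21) and neutrophil granule genes (17 of 22) lie furthest to the right, and osteoclast (8 of 16) and macrophage genes (10 of 20) to the left, beside the list chosen in these samples (16 of 17).

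Genes whose genotype difference depended on the hormone included matrix and membrane proteins outside the lists. Thbs1, thrombospondin, stood at 484, 469 and 425 CPM in WT estradiol and at 172, 161 and 178 CPM in KO estradiol, 2.70-fold lower (adjusted p = 1.53e-06). Its placebo libraries held 122 to 149 CPM, and the difference of differences was -1.61 (adjusted p = 8.44e-05). Col8a1, a short-chain collagen, was 3.47-fold lower at 79.3, 87.8 and 84.0 CPM against 271, 349 and 249.7 CPM. Fam78b was 3.08-fold lower and Tmem86a, an enzyme of ether lipid breakdown, 4.54-fold lower, each with KO estradiol near the placebo libraries. In the other direction St8sia2, which adds polysialic acid, was 35.5-fold higher at 4.80, 4.21 and 5.05 CPM against 0.197, 0.184 and 0 CPM, with 4.49 to 6.07 CPM in the placebo libraries. Ptprcap, a leukocyte membrane protein, was 55.7-fold higher and moved with the blood lists. Of the 50 named genes with a called difference of differences, 24 kept it in every refit in which they were tested, among them Trpc6, Thbs1, Wnt4, Sost, Cxcl12, Lgi2, Asb4, A2m and Myb, and 26 lost it in at least 1, among them Greb1 and Rag1.

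**Figure D5:**
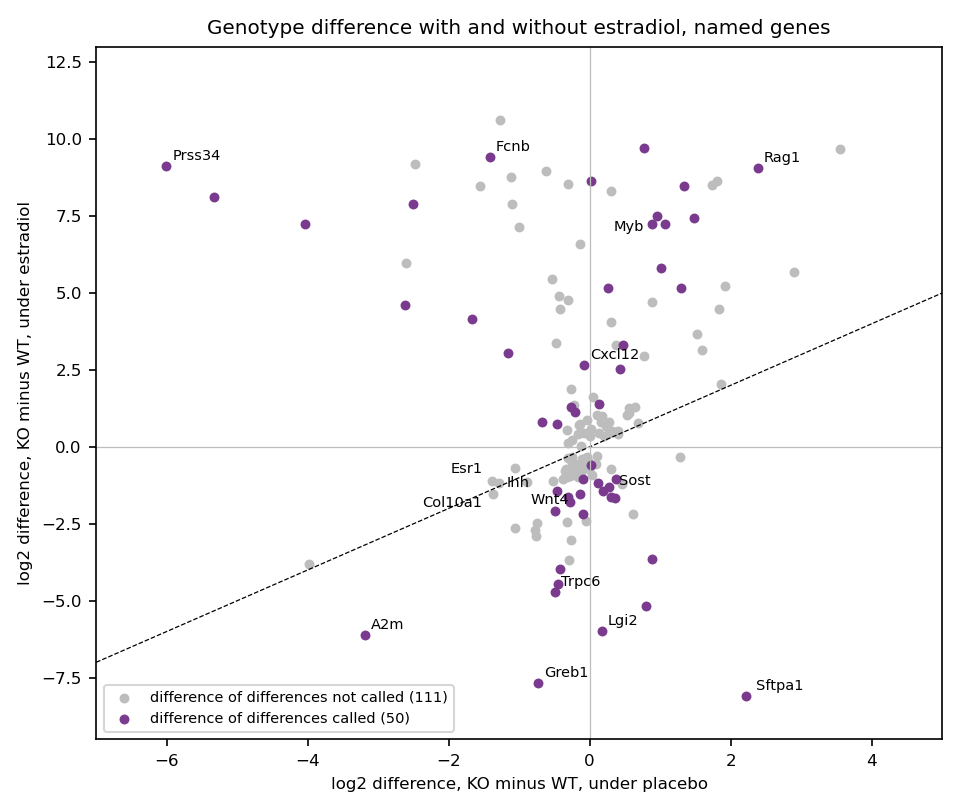
Log2 difference between KO and WT of the 161 named genes under placebo (x) and under estradiol (y), with the line of equal differences dashed. Purple points are the 50 genes whose differences under the 2 agents differ at an adjusted p under 0.05, Esr1, Col10a1 and Ihh lie near the line, and Greb1, Lgi2, Trpc6 and Myb lie far from it near a placebo difference of 0.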

How the data were processed

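RNA from mandibular condylar fibrocartilage of 11 samples was sequenced as poly-A libraries, per the labels' protocols. The submitters' processing notes name bcl2fastq 2.17, TopHat and the mouse build mm9, while the counting program, its strand setting and the gene annotation are not named in these sources. The authors deposited raw read counts per gene symbol for every sample. They also deposited a DESeq table for the comparison, with a log2 difference and p-values per gene, of which only the sign and the adjusted p-value were used, beside the counts.

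Genes were filtered with filterByExpr (minimum count 10, minimum total 15), which kept 99.98% of counts. Counts were scaled by TMM and tested with edgeR 4.0.16 (R 4.3.3) by its robust quasi-likelihood test in 1 fit of all 4 groups (7 residual degrees of freedom), with Benjamini-Hochberg adjustment over 14531 genes and calls at an adjusted p under 0.05. All adjusted p-values in the text come from that test unless another tool is named. Tests covered KO against WT under estradiol, the same under placebo, and the difference between those differences. The fit was tested on simulated data. Alternatives used DESeq2 1.42.0, limma-voom (limma 3.58.1), RLE scaling, no filter, other thresholds, only the 6 estradiol samples, the replicate number as a block, and leaving out each library. A gene with 0 counts in all WT libraries is given a bound from 3 counts per library, and 1 with 1 to 3 counts a ratio with an exact 95% interval, which covers counting error only.

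Named genes were the 15 largest called rises and falls with a mean of at least 1 CPM and no overlap (predicted genes and receptor segments left out), up to 4 called members of each list with the smallest p, a set always given, and 14 genes chosen by the smallest p of the difference between differences. Genes named beyond that rule to show members of a list, among them those that did not pass, were chosen after their values were seen. The gene lists and this comparison were chosen with earlier results of these data known. 27 symbols of the deposited table appear as dates, and these are not named. Results of a few further genes are not reported here, though the counts include them.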

Additional observations from a re-analysis of the deposited data

Results flagged for a closer look

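The genotype difference under estradiol departed from that under placebo for 167 of 14531 genes tested (edgeR's quasi-likelihood test of the difference, Benjamini-Hochberg adjustment). The genes below are named genes flagged by that test, each with the log2 difference under estradiol minus that under placebo. With 2 WT placebo libraries, the placebo side has the least replication, and 1 of them, WT placebo 2, had 16.0% of its counts in Rn45s. Values of genes with 0 or a few counts in a whole group depend on the small count that the fit adds, among them those of Sftpa1, Greb1, Prss34, Mcpt8, Fcnb, Ms4a3, Rag1, Rag2, Tmprss3, Mgst2 and Cecr2.

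Among genes with a more negative difference under estradiol, the value was -10.33 for Sftpa1, -6.95 for Greb1, -6.16 for Lgi2, -5.98 for Asb4, -4.53 for Shank2, -4.22 for Trpc6, -4.002 for Myo5c, -3.54 for Pi15 and -2.92 for A2m. Smaller values were -2.09 for Tmem86a, -2.02 for Gal, -1.93 for Fam78b, -1.61 for Thbs1, -1.59 for Micall2, -1.58 for Sost, -1.51 for Col8a1, -1.41 for Kcnk2 and -1.40 for Wnt4. Values of -1.33 for Siglec1, -1.30 for Vldlr, -0.98 for Bst2, -0.94 for Lifr and -0.60 for Egfl7 followed.

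Genes of blood lineages had large positive values, which were 15.13 for Prss34, 13.45 for Mcpt8, 10.83 for Fcnb, 10.40 for Ms4a3 and 5.81 for Csf3r. The B cell genes had 6.68 for Rag1, 6.55 for Mzb1, 6.18 for Vpreb3, 5.96 for Rag2 and 3.87 for Pax5. Other leukocyte and progenitor genes had 7.23 for Nkg7, 6.35 for Myb, 4.79 for Ptprcap, 4.21 for Il2rb and 2.84 for Ikzf1.

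Further positive values were 8.96 for Tmprss3, 8.61 for Mgst2, 7.13 for Cecr2, 4.89 for St8sia2, 2.75 for Cxcl12, 2.11 for Limch1, 1.49 for Igf1 and 1.26 for Ebf3. The replication genes E2f8, Uhrf1 and Rrm2 had 1.56, 1.33 and 1.21.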

How the results depend on the processing

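For KO against WT under estradiol, 1667 genes were called, against 2512 at an adjusted p under 0.1, 646 with at least a 2-fold difference, and 867 to 1850 on leaving out 1 library. The count was 1671 with RLE scaling, 2225 with DESeq2, 1481 with limma-voom, 1564 without the filter and 1434 with only the 6 estradiol samples. Higher genes numbered 540 with at least a 2-fold difference and 574 to 1162 on leaving out 1 library, and lower genes 1021 at an adjusted p under 0.1, 106 with at least a 2-fold difference and 277 to 724 on leaving out 1 library. Under placebo, 36 genes were called with DESeq2, 17 with the replicate block and 1 to 50 on leaving out 1 library. For the difference between differences, 395 genes were called at an adjusted p under 0.1, 561 with DESeq2, 69 with limma-voom, 301 with the replicate block and 68 to 270 on leaving out 1 library. Its positive values numbered 284, 421, 40 and 246 under those 4 settings and 41 to 221 on leaving out 1 library, and its negative values 111, 140 and 29 under the first 3 and 27 to 61 on leaving out 1 library. The cause of these shifts was not tested. The samples share replicate numbers, but same-numbered samples of the 2 estradiol groups had deviations correlated by 0.0922, 0.0473 and 0.0941. Those of KO placebo and KO estradiol were correlated by 0.285, 0.420 and 0.183, and those of WT placebo and WT estradiol by -0.176 and -0.188. Same-numbered WT placebo and KO placebo samples were correlated by 0.119 and 0.186, and WT placebo and KO estradiol samples by 0.103 and 0.145. For WT estradiol and KO placebo the values were 0.122, 0.0693 and 0.121. The 2 WT placebo libraries deviate from their mean by equal and opposite amounts, so their values are not independent. As not every pair was above 0.1, the numbers were not taken to pair the samples, and whether they do was not settled. Each of the 6 estradiol samples correlated, across the estradiol groups, best with its own number, and the replicate block gave 1799 genes, 1563 of them shared with 1667. Beside the cartilage list, the block gave 6 lower genes of collagen crosslinking, 8 higher erythroid and 4 higher macrophage genes, and counts of 1 or 2 moved by 1 in 5 other lists. Of 154 called named genes, 105 kept the call in every refit in which they were tested and 49 lost it in at least 1. Sox9, not called, changed sign to -0.024 with limma-voom, -0.016 with the replicate block, -0.21 without KO estradiol 1, -0.014 without KO estradiol 3, -0.034 without WT estradiol 2 and -0.032 without WT estradiol 3, within a range of -0.21 to 0.25 on leaving out 1 library. Psmb8, not called, changed to -0.014 without KO estradiol 2, within a range of -0.014 to 0.26. Depth limits genes under 3 counts per library, which is 0.118 to 0.204 CPM.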

Other observations

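Some genes of 2 further lists, chosen after their values were seen and so given as values only, were lower in KO estradiol. Of 16 tested genes of MHC class I presentation, which shows peptides to T cells, 5 were lower and 0 higher, and 8 of the 16 fitted differences were above 0, with a median log2 difference of -0.08. H2-K1, a class I heavy chain, stood at 397, 426 and 444 CPM in WT and at 237, 245 and 246 CPM in KO, 1.74-fold lower (edgeR adjusted p = 0.000174). H2-D1 was 1.69-fold and the light chain B2m 1.65-fold lower, and the proteasome subunit Psmb8 did not pass (log2 0.12, adjusted p = 0.699). The count was 3 without WT estradiol 2 or KO estradiol 2. No member was higher at an unadjusted p under 0.05, with DESeq2 or with limma-voom, where the counts were all 0.

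Of 35 lysosomal enzyme genes 14 were lower and 0 higher, with a median of -0.26 and 29 of 35 without overlap. Over all genes tested, the shares were 4.2% lower and 5026 of 14531 without overlap. The cathepsin Ctsz was 1.40-fold lower (adjusted p = 0.00162). The count was 5 without KO estradiol 2, 7 without WT estradiol 1 and 9 without WT estradiol 2 or KO estradiol 1. Higher members also numbered 0 at an unadjusted p under 0.05, with DESeq2 and with limma-voom. Most called genes of osteoclasts and macrophages, which share lysosomal enzymes, were lower too, and the part of these cells was not tested.

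Some single genes were also chosen after their values were seen. Limch1, an actin-binding protein, stood at 24.5, 23.5 and 22.8 CPM in WT estradiol and at 137, 128 and 146 CPM in KO estradiol, 5.81-fold higher (adjusted p = 1.18e-05), with 92.9 to 186 CPM in the placebo libraries. Slc20a2, a phosphate carrier, was 2.15-fold higher (adjusted p = 2.11e-05). Gal, the neuropeptide galanin, was 3.18-fold lower at 3.96, 4.57 and 3.71 CPM against 12.3, 12.5 and 14.1 CPM. Lifr, the receptor of leukemia inhibitory factor, was 2.04-fold lower at 263, 262 and 335 CPM against 598, 652 and 507 CPM (adjusted p = 0.000303), and the lipoprotein receptor Vldlr was 2.26-fold lower (adjusted p = 0.000708). The complement gene C3 was 10.4-fold higher at 22.1, 75.3 and 33.4 CPM against 4.10, 4.14 and 4.33 CPM (adjusted p = 0.00592). In C3, KO estradiol 2 was the highest library, as it was for the neutrophil sum.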
